A study of Rattus norvegicus with 6 samples.

Results

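The genes described here carry lactate and pyruvate across membranes or interconvert them: the plasma membrane monocarboxylate transporters *Slc16a1* (MCT1), *Slc16a3* (MCT4) and *Slc16a7* (MCT2), their chaperones *Bsg* (basigin) and *Emb* (embigin), the lactate dehydrogenase subunits *Ldha* and *Ldhb*, the pyruvate dehydrogenase kinase *Pdk1*, and the mitochondrial pyruvate carrier subunits *Mpc1* and *Mpc2*. They were chosen by name, as every spot of the arrays, control spots left out, that carried 1 of these gene symbols. All 10 genes were found, on 16 of 45598 probes, among 17960 genes with a RefSeq symbol. Their mRNA was compared between replicating and quiescent rat β-cells on 6 arrays of 1 colour. Islets came from young adult male Wistar rats, those of 4 rats were pooled for each of 3 preparations, and all were cultured overnight with EdU, a thymidine analogue that cells take up while they copy their DNA. Cells of both groups were gated as β-cells by size, granularity and Newport Green, a dye that binds zinc. EdU-positive cells formed the replicating group and EdU-negative cells the quiescent group, with 1 array of each per preparation. All cells were fixed and permeabilised before the sort, and their RNA was amplified as whole-transcriptome cDNA before labelling. A quiescent cell in this design is a cell that took up no EdU overnight, not one shown to be out of the cell cycle.

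Lactate dehydrogenase interconverts pyruvate and lactate in the cytosol, and transporters of the Slc16 family move both acids with a proton across the plasma membrane, where basigin or embigin escorts them. Pyruvate that is not turned into lactate enters mitochondria through the carrier formed by MPC1 and MPC2 and is then oxidised by pyruvate dehydrogenase, which PDK1 inhibits by phosphorylation. Mature β-cells are known for keeping *Slc16a1* and *Ldha* very low, so that glucose carbon goes to mitochondria and circulating pyruvate or lactate does not trigger insulin release. For this reason both belong to the genes called disallowed, or repressed, in β-cells.

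The promoters of *Slc16a1*, *Bsg* and *Ldha* are shown because they were the 3 of the 10 that held CACGTG, the E-box letters that MYC, MAX, USF and related factors can bind. The window searched ran from 250 bases before to 50 bases after the RefSeq start of each gene, a promoter was given for 10 of 10 genes, and both strands read the same since CACGTG is its own reverse complement. The 250 bases before the start are printed 5′ to 3′ on the strand of the gene, from RefSeq on GRCr8, with CACGTG in capitals.
Slc16a1, chr2:194812410-194812659, plus strand: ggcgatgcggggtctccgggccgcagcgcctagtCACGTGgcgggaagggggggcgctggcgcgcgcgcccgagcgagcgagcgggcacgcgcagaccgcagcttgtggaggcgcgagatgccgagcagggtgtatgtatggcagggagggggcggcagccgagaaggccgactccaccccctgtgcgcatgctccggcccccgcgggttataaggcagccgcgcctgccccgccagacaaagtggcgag
Bsg, chr7:10651006-10651255, minus strand: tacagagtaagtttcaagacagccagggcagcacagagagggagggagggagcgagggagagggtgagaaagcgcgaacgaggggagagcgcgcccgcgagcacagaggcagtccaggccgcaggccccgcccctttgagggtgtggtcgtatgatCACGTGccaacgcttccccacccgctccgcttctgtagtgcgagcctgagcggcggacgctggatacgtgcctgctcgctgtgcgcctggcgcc
Ldha, chr1:106507842-106508091, plus strand: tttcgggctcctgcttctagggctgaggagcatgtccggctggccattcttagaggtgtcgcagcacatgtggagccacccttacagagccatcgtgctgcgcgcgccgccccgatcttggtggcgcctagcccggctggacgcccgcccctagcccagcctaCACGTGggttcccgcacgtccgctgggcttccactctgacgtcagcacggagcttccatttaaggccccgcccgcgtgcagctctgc
The E-box began 216 bases before the start of *Slc16a1*, 94 before that of *Bsg* and 87 before that of *Ldha*. Of 33469 RefSeq promoters of the same length, 6.42% held CACGTG. The shorter ACGTG, the core of the element bound by hypoxia-inducible factors, was searched on both strands and lies within every CACGTG. It was in the promoters of 5 of the 10 genes, these 3 with *Slc16a7* and *Pdk1*, and in 19.3% of all promoters. A match of letters is a description of the window, and no binding was measured.

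Values are the deposited log2 intensities, normalised between arrays, and a log2 ratio is always replicating over quiescent within a preparation. A gene with several probes is represented by its brightest probe, and log2 levels of different probes are not set against each other, since each probe has its own response. A gene is said to have risen or fallen where the unadjusted p of the limma fit over all probes was at most 0.05. At an adjusted p under 0.05 no probe passed, 0 of 45598 or 0%, and 9.60% of all probes passed the unadjusted threshold. Among the 17960 genes, 6.30% rose and 3.16% fell in replicating cells. The quiescent array of preparation 2 stood apart, with 1583 outlier spots against 252 to 299 on the others. Its r with the quiescent array of preparation 3 was 0.654. Ratios of the 10 genes and related genes that this array moved by over 1.5 times or turned in sign are also given without preparation 2. Probes well above background made up 96.4% and 98.4% on the quiescent arrays of preparations 1 and 2, against 80.8% to 87.3% on the others. The 2 arrays of a preparation had an r of 0.876, 0.709 and 0.969 with each other in preparations 1 to 3. Values without preparation 2 still hold preparation 1. With 3 pairs, an exact sign-flip test cannot go below a p of 0.25, two-sided.

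Of the 10 genes, *Slc16a1* and *Bsg* rose in replicating β-cells, by 2.39-fold and 2.20-fold, and none fell. These 2 of 10 stand beside the 6.30% of all genes that rose. The median log2 ratio of the 10 genes was 0.89, against -0.0010 over all genes, and 8 of the 10 had a ratio above 0. By preparation this median was 0.64, 1.54 and -0.05 in preparations 1, 2 and 3. Without preparation 2 it was 0.27. Without preparation 1, 0 of the 10 genes passed, where 286 of all 17960 genes rose and 24 fell. Ratios were above 0 in all 3 preparations for 4 genes, *Slc16a1*, *Slc16a3*, *Bsg* and the brightest probe of *Mpc2*, where 17.6% of all genes did this, and below 0 in all 3 for *Slc16a7*, where 18.6% of all genes did. Every replicating array lay above every quiescent array for *Slc16a1*, *Slc16a3* and *Bsg*, against 10.6% of all genes. In sorted populations such as these, fewer cells of a type and less RNA per cell cannot be told apart.

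**Figure D1:**
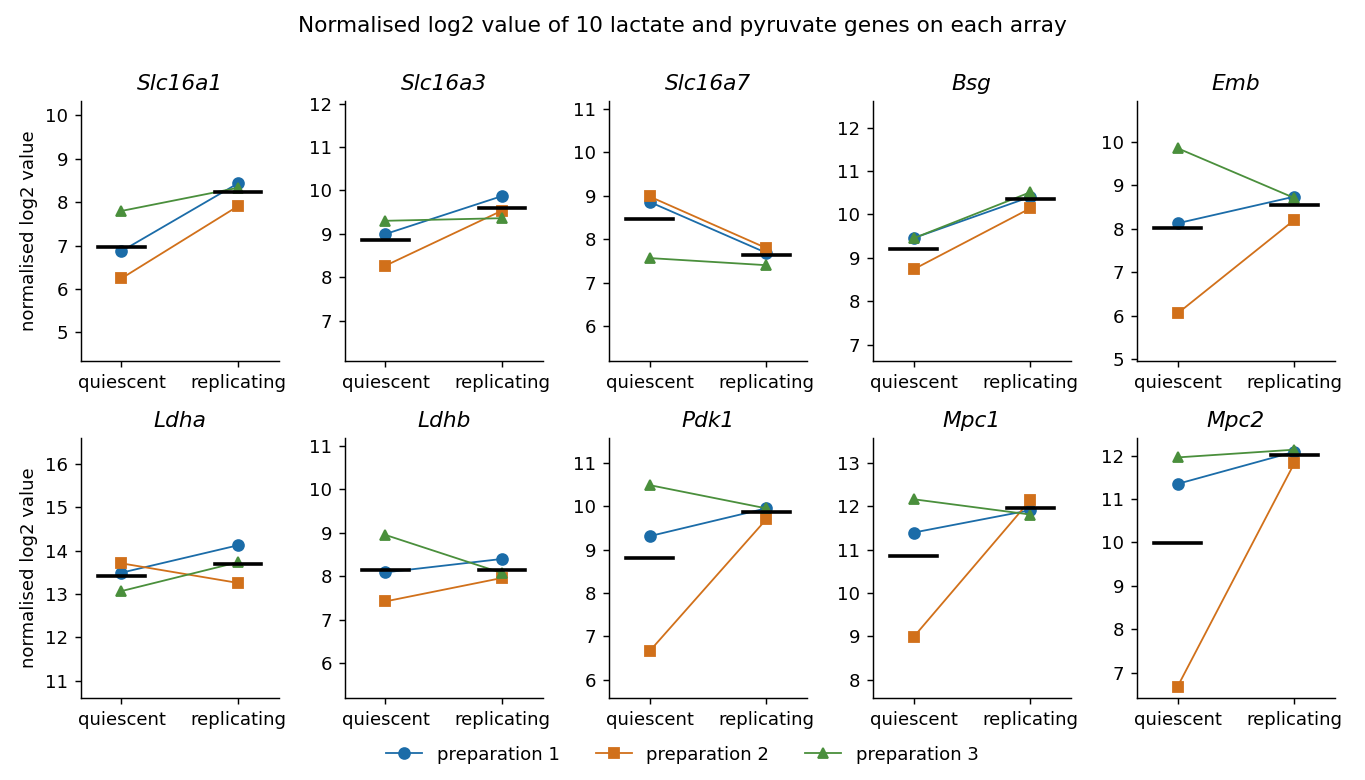
Normalised log2 value (vertical axis, 6 log2 units in each panel) of the brightest probe of each of the 10 genes on the quiescent and replicating array of each islet preparation, joined by a line, with black bars for group means (n = 3). The lines of *Slc16a1*, *Slc16a3*, *Bsg* and *Mpc2* rise in all 3 preparations and those of *Slc16a7* fall in all 3. The quiescent array of preparation 2 is far below the other arrays for *Emb*, *Pdk1*, *Mpc1* and *Mpc2*.

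*Slc16a1* encodes MCT1, the widely expressed carrier of lactate and pyruvate. Its probe, at chr2:199879777-199879836 of rn4, read 8.43, 7.91 and 8.33 in replicating cells, in the order of preparations 1 to 3, and 6.87, 6.24 and 7.80 on the quiescent arrays. The replicating arrays lay close together and all above the quiescent ones, whose values spread more. The group means were 8.22 ± 0.28 and 6.97 ± 0.78 (SD, n = 3). The log2 ratio was 1.25 (SE 0.38, 95% confidence interval 0.30 to 2.21), with an unadjusted p of 0.0198 and an adjusted p of 0.475. The ratio was 1.56 and 1.67 in preparations 1 and 2 and 0.53 in preparation 3, where the quiescent array was the brightest of its group. Without preparation 1 it was 1.10 and no longer passed (unadjusted p of 0.140), and without preparation 2 it was 1.05 (unadjusted p of 0.0470). On each of the 6 arrays its signal stood well above background, as did the brightest probe of each of the other genes.

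*Slc16a3* encodes MCT4, the lactate exporter of glycolytic cells. Its probe, at chr10:110163119-110163178 of rn4 and printed in 10 spots per array, read 9.87, 9.54 and 9.36 on the replicating arrays and 9.00, 8.27 and 9.30 on the quiescent arrays. The groups did not overlap, but in preparation 3 the pair nearly coincided, with a ratio of 0.06 against 0.88 and 1.27 in the others. The log2 ratio of 0.73 (SE 0.37, interval -0.22 to 1.69) did not pass (adjusted p = 0.477), and it was 0.47 without preparation 2.

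*Slc16a7* encodes MCT2, a carrier with high affinity for pyruvate. Its probe, at chr7:65210155-65210214 of rn4, read 7.69, 7.80 and 7.40 on the replicating arrays and 8.86, 8.98 and 7.56 on the quiescent arrays. In preparations 1 and 2 the quiescent array was clearly the higher of the pair, and in preparation 3 the values were close, so that the groups overlapped. The log2 ratio was -0.84 (SE 0.37, interval -1.78 to 0.096) and did not pass (adjusted p = 0.475). It was -1.17, -1.19 and -0.16 in the 3 preparations. With preparation 3 left out it was -1.18 and passed (unadjusted p of 0.0343). In that setting 2459 of 17960 genes rose and 1830 fell, against 1132 and 568 with all 3 preparations.

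*Bsg* encodes basigin, the glycoprotein that brings MCT1 and MCT4 to the cell surface. Its probe lies at chr7:11508883-11508942 of rn4 and is shown because *Bsg* had the smallest p of the 10 genes; the array files pair it with a RefSeq transcript, and none of its 3 reading frames holds a stop codon.
Bsg probe: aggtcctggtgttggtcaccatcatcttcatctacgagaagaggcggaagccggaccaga
It read 10.40, 10.14 and 10.51 on the replicating arrays and 9.45, 8.74 and 9.45 on the quiescent arrays. The replicating arrays were higher in every preparation, and the nearest values of the groups were still far apart. The log2 ratio was 1.14 (SE 0.31, interval 0.34 to 1.94), with an unadjusted p of 0.0143 and an adjusted p of 0.475. By preparation it was 0.95, 1.41 and 1.06. Without preparation 1 it was 1.23 and did not pass (unadjusted p of 0.0837), and without preparation 2 it was 1.00 (unadjusted p of 0.0384).

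*Emb* encodes embigin, the chaperone that MCT2 prefers. Its probe, at chr2:49155015-49155074 of rn4, read 8.74, 8.20 and 8.71 on the replicating arrays and 8.12, 6.05 and 9.85 on the quiescent arrays. The quiescent arrays spanned the replicating ones on both sides, from the lowest in preparation 2 to the highest in preparation 3. The ratios were 0.61, 2.15 and -1.15, and their mean of 0.54 (SE 0.67) did not pass (adjusted p = 0.702). Without preparation 2 the sign turned, to -0.27.

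**Figure D2:**
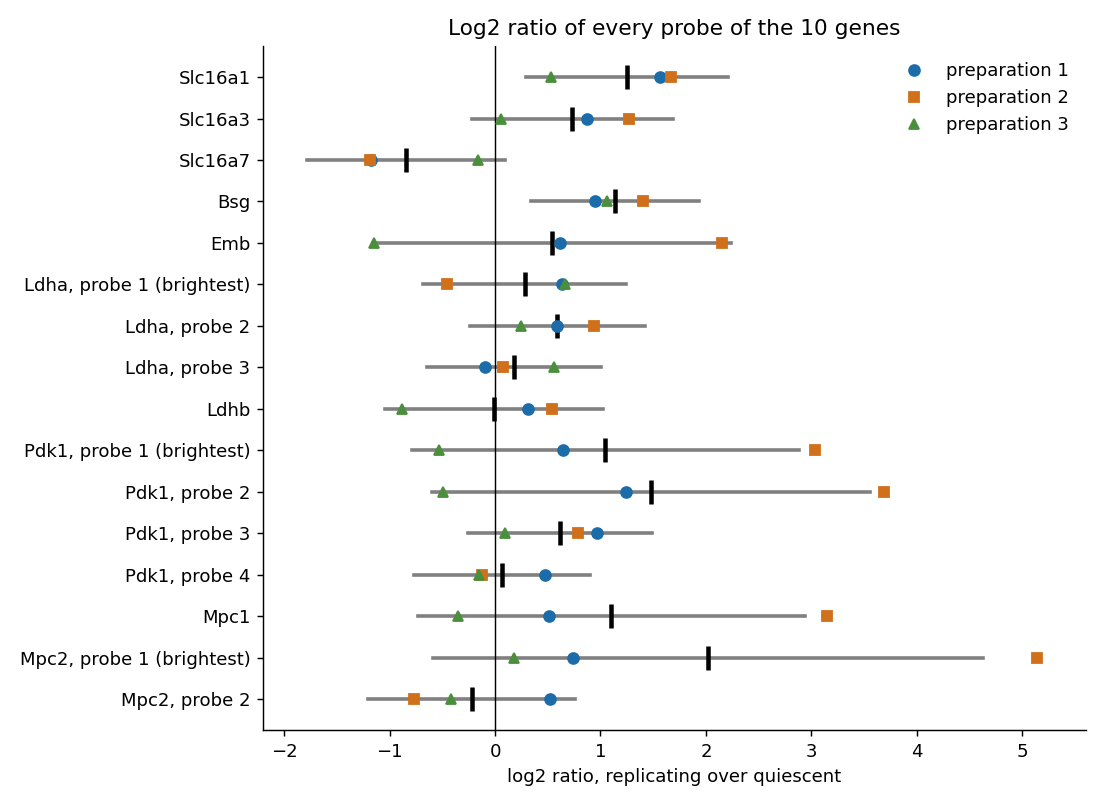
Log2 ratio of replicating over quiescent (horizontal axis) of all 16 probes of the 10 genes, 1 line per probe. Symbols are the 3 islet preparations, black ticks the fitted ratio and grey lines its 95% confidence interval, which excludes 0 for *Slc16a1* and *Bsg* alone. The brightest probe of *Mpc2* reaches 5.14 in preparation 2 while its other probe is at -0.77.

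*Ldha* encodes the M subunit of lactate dehydrogenase and is, like *Slc16a1*, a gene that β-cells repress. It had 3 probes on chromosome 1, and none passed. The brightest, at chr1:97412488-97412547 of rn4, read 14.12, 13.25 and 13.73 on the replicating arrays and 13.49, 13.71 and 13.07 on the quiescent arrays. The groups overlapped, and in preparation 2 the quiescent array was the higher. The log2 ratio was 0.28 (SE 0.38, interval -0.68 to 1.25, adjusted p = 0.728), or 0.65 without preparation 2. The probe at chr1:97412370-97412429 gave 0.59 (adjusted p = 0.486), with ratios of 0.59, 0.94 and 0.25, and that at chr1:97411929-97411988 gave 0.18 (adjusted p = 0.803). In preparation 2 the first 2 probes, which lie next to each other, had opposite signs.

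*Ldhb* encodes the H subunit. Its probe crosses 2029 bases of chromosome 4 from end to end, at chr4:180061921-180063949 of rn4. It read 8.40, 7.96 and 8.07 on the replicating arrays and 8.09, 7.42 and 8.95 on the quiescent arrays. The groups overlapped, with small ratios above 0 in preparations 1 and 2 and -0.88 in preparation 3. The log2 ratio was -0.0096 (SE 0.41, interval -1.05 to 1.03, adjusted p = 0.993), and its sign turned with the background offset, to 0.014 and 0.032 at offsets of 16 and 0. Without preparation 2 it was -0.28.

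*Pdk1*, whose kinase holds pyruvate dehydrogenase inactive, had 4 probes on chromosome 3. The brightest, at chr3:54320728-54320787 of rn4, read 9.95, 9.69 and 9.95 on the replicating arrays and 9.31, 6.66 and 10.48 on the quiescent arrays. Replicating arrays were nearly equal, while the quiescent arrays ran from far below to above them. The log2 ratio of 1.05 (SE 0.72, adjusted p = 0.522) did not pass, and it was 0.05 without preparation 2. The next probe, at chr3:54322502-54322561, had the same pattern, with a ratio of 1.48 (adjusted p = 0.485), or 0.38 without preparation 2. The probe at chr3:54302974-54303274, which lies apart from the others, had every replicating array above every quiescent one and a ratio of 0.62 (adjusted p = 0.487), without a large value in preparation 2 (0.97, 0.79 and 0.10). The dimmest probe was well above background on 2 arrays and gave 0.06, or 0.16 without preparation 2.

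*Mpc1* encodes 1 subunit of the mitochondrial pyruvate carrier. Its probe, at chr1:47077741-47077800 of rn4, read 11.91, 12.13 and 11.81 on the replicating arrays and 11.39, 8.99 and 12.16 on the quiescent arrays. The quiescent array of preparation 2 was far below all others, and in preparation 3 the quiescent array was the higher of the pair. The log2 ratio was 1.10 (SE 0.72, adjusted p = 0.511), and 0.08 without preparation 2.

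*Mpc2* encodes the other subunit, and its 2 probes differed. The brighter, at chr13:81203570-81203629 of rn4, is paired in the array files with an expressed sequence tag and is listed in the opposite direction to the probe of the RefSeq transcript. It read 12.09, 11.82 and 12.14 on the replicating arrays and 11.35, 6.68 and 11.96 on the quiescent arrays. Only the quiescent array of preparation 2 was low, and it gave the ratio of 5.14 there against 0.74 and 0.18 in the other preparations. The log2 ratio of 2.02 (SE 1.02, interval -0.59 to 4.63, adjusted p = 0.477) was 0.46 without preparation 2. The RefSeq probe, at chr13:81200854-81200913, read 9.01, 8.30 and 9.12 on the replicating arrays and 8.49, 9.07 and 9.53 on the quiescent arrays. Here the quiescent array was the higher in preparations 2 and 3, and the ratio was -0.22 (SE 0.38, adjusted p = 0.794), or 0.05 without preparation 2. With this probe in place of the brighter one, a choice made after seeing the data, the median of the 10 genes was 0.64. The labelled material was double-stranded cDNA, so a probe of either direction could bind it.

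Which of the transporter and chaperone genes passed depended in part on the scaling between arrays. With cyclic loess, *Slc16a1* at 1.49 and *Bsg* at 0.89 still passed. Scaled to the 75th percentile of each array, the normexp values gave 0.88 for *Slc16a1* (unadjusted p of 0.100), 0.94 for *Bsg* (unadjusted p of 0.0823) and -1.15 for *Slc16a7*, which then passed (unadjusted p of 0.0406). The processed signals of Feature Extraction, scaled in the same way, gave 1.20 for *Slc16a1* (unadjusted p of 0.0941) and 0.98 for *Bsg* (unadjusted p of 0.163). In these settings the median of all genes was itself shifted, to -0.28 and -0.48. Relative to it, *Slc16a1* stood at 1.16 and 1.68, *Bsg* at 1.22 and 1.46 and *Slc16a7* at -0.87 and -1.03. Over all genes, 1132 rose and 568 fell as reported, against 885 and 1776 with the scaled normexp values and 367 and 883 with the processed signals. *Bsg* also missed the threshold when the variance followed a trend with intensity (unadjusted p of 0.0513). Under the alternatives run, *Slc16a1* stayed between 0.88 and 1.99 and *Bsg* between 0.89 and 1.23.

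**Figure D3:**
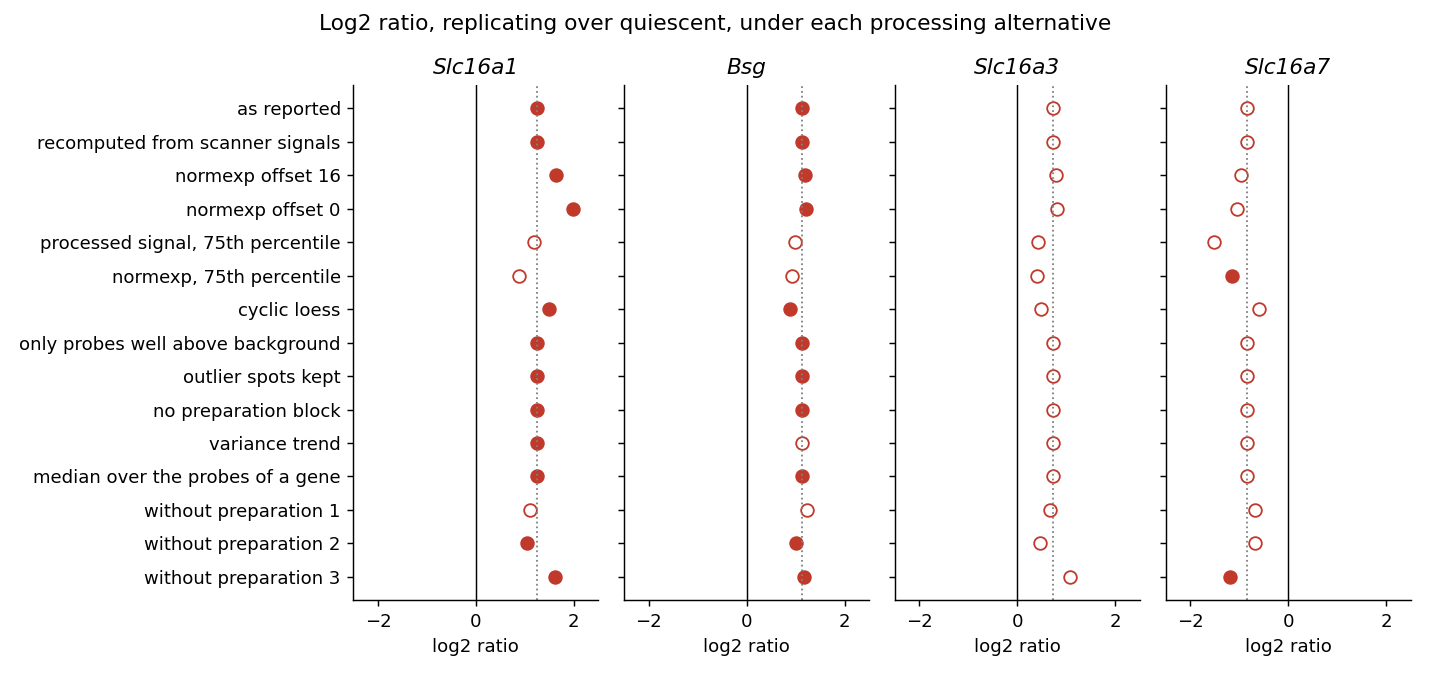
Log2 ratio of replicating over quiescent (horizontal axes) of *Slc16a1*, *Bsg*, *Slc16a3* and *Slc16a7* under each way of processing or choosing the arrays (1 per line), filled where the unadjusted p was at most 0.05. The dotted line is the value as reported; each gene keeps its side of 0 in every line, *Slc16a3* is filled in none and *Slc16a7* in 2.

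Across the 6 arrays, which share 3 preparations and a common normalisation, *Slc16a1* followed *Slc16a3* and *Bsg* with a Pearson r of 0.93 each and ran opposite to *Slc16a7* with -0.94. *Ldha* had an r of 0.16 and *Ldhb* of 0.59 with it, and *Mpc2*, *Pdk1*, *Mpc1* and *Emb* lay between 0.76 and 0.84. The genes most like *Slc16a1* in this measure were *Cyp7b1*, an oxysterol hydroxylase, *Slc7a3*, a carrier of cationic amino acids, and *B3galnt1*, a glycosyltransferase, each with an r of 1.00 after rounding and log2 ratios of 1.30, 1.41 and 1.49. An r of at least 0.9 with *Slc16a1* was found for 1503 of 14642 genes, so a high r was common on these arrays.

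Around these genes, 80 of the 82 genes of 7 related lists were on the arrays. Of these, 10 rose and 1 fell, where 6.30% of all genes rose and 3.16% fell. The median log2 ratio of the 80 genes was 0.26. By preparation this median was 0.47, 0.69 and -0.05. This median was 0.13 without preparation 2, 0.03 with the scaled normexp values and 0.06 with the scaled processed signals. The adjusted p of those that passed was 0.475 for all but *Igfbp4*, at 0.293. The number that passed was 2 without preparation 1, *Pc* and *Igfbp4*, 10 without preparation 2 and 23 without preparation 3. It was 4 with the scaled processed signals. Over all 17960 genes, 286 rose and 24 fell without preparation 1, 854 and 196 without preparation 2, and 2459 and 1830 without preparation 3. With the scaled processed signals 367 rose and 883 fell, so the counts over all genes moved with the setting too. Among the other carriers of monocarboxylates and their relatives none of 15 passed, with a median of 0.15, or -0.07 without preparation 2. The brightest of them were *Slc16a10*, which carries aromatic amino acids, at 0.93, *Nptn*, a relative of basigin, at 0.71, *Slc16a8* at -0.29 and *Slc16a5* at -0.62. Without preparation 2 *Slc16a10* was at 0.13 and *Nptn* at -0.19. The median of these carriers was 0.27, 0.0042 and -0.05 by preparation. Among pyruvate kinases and other lactate dehydrogenases none of 5 passed (median -0.58, or 0.05 without preparation 2). By preparation the median was 0.31, -1.27 and -0.21. *Pkm*, the pyruvate kinase of most proliferating tissues, had ratios of 0.47, 0.71 and 0.73 in the 3 preparations and a mean of 0.64 (adjusted p = 0.475), while *Pklr*, *Ldhc* and *Ldhd* were at -0.69, -0.74 and -0.58. Without preparation 2 *Pklr* was at 0.05 and *Ldhd* at -0.14.

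On the mitochondrial side, 2 of 11 genes of the pyruvate dehydrogenase complex, its kinases and phosphatases rose and none fell (median 0.63, or 0.31 without preparation 2). These 2 of 11 stand beside the 6.30% of all genes that rose. By preparation the median of the list was 0.74, 1.12 and -0.08. *Pdhb*, the beta subunit of the first enzyme of the complex, rose by 1.47 (SE 0.35, unadjusted p of 0.00823), with ratios of 1.60, 1.89 and 0.91. *Pdk4*, a kinase that inhibits the complex, rose by 1.85 (SE 0.65, unadjusted p of 0.0353), with 1.52, 3.59 and 0.43, but was at 0.98 and did not pass without preparation 2 (unadjusted p of 0.0630). An enzyme subunit and an inhibitor of the enzyme rose together. *Pdha1* was at 0.98, *Dlat*, the acetyltransferase, at 1.25 (adjusted p = 0.475) and *Pdp2*, a phosphatase, at 0.45. Without preparation 2 these were 0.41, 0.64 and 0.11.

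Among other fates of pyruvate 1 of 8 genes rose, where 6.30% of all genes did (median 0.76, or 0.18 without preparation 2). This was *Pc*, pyruvate carboxylase, which makes oxaloacetate and is abundant in β-cells, at 1.54 (SE 0.38, unadjusted p of 0.00887), with ratios of 1.23, 2.27 and 1.13. *Gpt2*, which makes alanine, was at 1.13 (adjusted p = 0.475), malic enzyme *Me1* at 0.95, citrate synthase *Cs* at 0.58 and *Acly* at -0.34. Without preparation 2 *Gpt2*, *Me1*, *Cs* and *Acly* were at 0.60, 0.21, 0.24 and -0.60. The median of these other fates was 0.80, 1.75 and -0.29 by preparation. Of 8 genes of the NADH shuttles, the route by which β-cells oxidise cytosolic NADH in place of lactate dehydrogenase, *Mdh1*, the cytosolic malate dehydrogenase, rose by 1.65 (SE 0.44, unadjusted p of 0.0129) with ratios of 1.91, 2.39 and 0.65. It was the 1 of these 8 that passed, where 6.30% of all genes rose. The list's median was 0.29, or 0.51 without preparation 2, and *Mdh2* was at 0.88, *Slc25a13* at 0.32, *Gpd2* at 0.09 and *Got2* at -0.02. Without preparation 2 these were 0.54, 0.07, -0.32 and 0.48.

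Of 14 hypoxia-inducible factors and their targets 1 rose (median 0.26, or -0.07 without preparation 2). This share is near the 6.30% of all genes that rose. By preparation the median was 0.36, 1.00 and -0.26. *Ndrg1*, a stress-responsive gene, was at 1.91 (SE 0.62, unadjusted p of 0.0264), with ratios of 1.34, 3.61 and 0.77, and 1.06 without preparation 2 (unadjusted p of 0.0357). The glucose transporter *Slc2a1* was at 0.67, and *Adm*, *Vegfa* and *Pgk1* lay at 0.20, 0.07 and 0.01. Without preparation 2 *Slc2a1* was at 0.22, *Adm* at 0.10 and *Pgk1* at 0.16.

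Of 19 other genes that β-cells repress, 5 rose and 1 fell, where 6.30% and 3.16% of all genes did. The median of the list was 0.52. By preparation this median was 0.62, -0.27 and 0.26, and without preparation 2 it was 0.29. *Igfbp4*, a binding protein of insulin-like growth factors, rose by 2.24 (SE 0.35, unadjusted p of 0.00127), with 2.13, 2.78 and 1.80 in the preparations. *Oat*, ornithine aminotransferase, rose by 1.88 (unadjusted p of 0.0240), *Arhgdib*, best known from leukocytes, by 1.65 (unadjusted p of 0.0110), *Nfib*, a transcription factor, by 1.18 (unadjusted p of 0.0135) and *Zyx*, a focal adhesion protein, by 0.87 (unadjusted p of 0.0385). *Dkk3*, a secreted protein of the Dickkopf family, had the opposite change, -1.55 (unadjusted p of 0.0341). Without preparation 2 *Zyx* at 0.73 and *Dkk3* at -1.14 did not pass (unadjusted p of 0.108 and 0.0737). The brightest that did not pass included *Acot7* at -0.14, *Maf* at -0.61 and *Yap1* at -1.17. Without preparation 2 *Acot7* was at 0.13 and *Yap1* at -0.33.

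**Figure D4:**
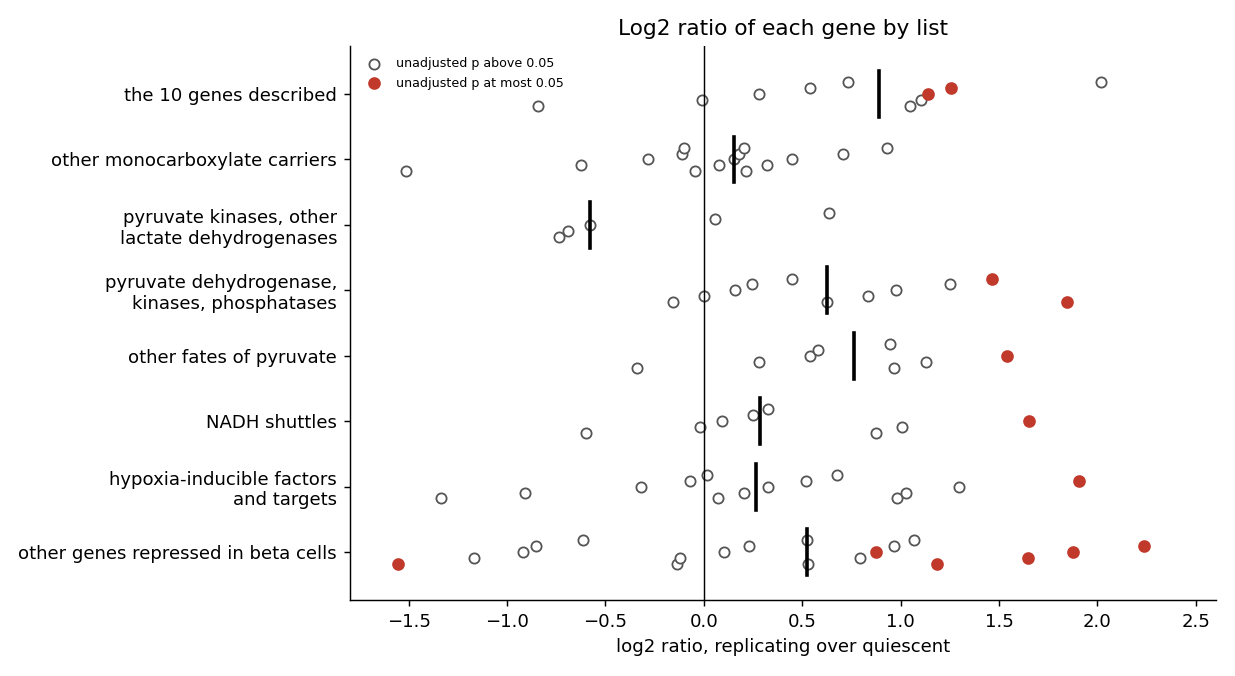
Log2 ratio of replicating over quiescent (horizontal axis) of each gene on the arrays, by list; red points have an unadjusted p of at most 0.05 and black bars are list medians. The 10 genes described have a median of 0.89 and 2 red points, and the genes repressed in β-cells have 5 red points above 0 and 1 below. Over all genes, 6.30% rose and 3.16% fell at this threshold.

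Markers of other cells moved in the same comparison, in which 6.30% of all genes rose and 3.16% fell. The 5 cycling-cell markers all rose, with mean log2 values of 11.3 to 11.4 on replicating arrays and at most 8.57 on quiescent ones. Of 9 β-cell markers 1 fell, *Mafa* at -1.01, and none rose. The 3 with a ratio above 0 were *Iapp* at 0.91, *Ins2* at 0.42 and *Ins1* at 0.25. Below 0 without passing were *Pdx1* at -0.76, *Slc2a2* at -0.70, *Ucn3* at -0.60, *Nkx6-1* at -0.56 and *Slc30a8* at -0.07. Ratios were below 0 in all 3 preparations for 4 of the 9, where 18.6% of all genes did this. The median of the β-cell markers was -0.56, and by preparation -0.02, 0.11 and -0.71. All 9 were well above background on all arrays, with list means of 13.4 to 13.6 on replicating and 13.6 to 14.1 on quiescent arrays. Of 10 fibroblast and stellate cell markers 4 rose, among them *Col1a2* by 2.93 and *Col3a1* by 3.04, and the list mean was 9.26 to 10.4 on replicating and 8.43 to 8.61 on quiescent arrays, 9 of the 10 markers being well above background on all arrays. By preparation the median of these markers was 1.59, 0.74 and 1.32, beside ratios of 1.56, 1.67 and 0.53 for *Slc16a1* and 0.95, 1.41 and 1.06 for *Bsg*. The same median was 0.41, 0.64 and 0.78 for α-cell and 1.08, 0.99 and 0.96 for δ- and PP-cell markers. It was 0.90, 1.84 and -0.20 for endothelial, 0.80, -0.50 and 0.90 for leukocyte and 0.34, 0.56 and 0.19 for acinar and duct markers. Of 6 α-cell markers 2 rose, *Gcg* by 2.39 and *Gc* by 1.86, while *Slc7a2* at -0.56 and *Ttr* at -0.20 were below 0. Of 6 leukocyte markers 2 rose, *Cd74* by 1.48 and *Cd68* by 1.32, while *Tyrobp* at -0.71 and *Laptm5* at -0.57 were below 0. Also rising were 3 of 5 δ- and PP-cell markers, and all 5 had a ratio above 0. Of 8 acinar and duct markers 3 rose, *Spp1* by 2.09, *Prss1* by 1.56 and *Ctrb1* by 0.86. *Amy2a3* at 0.24 and *Cpa1* at 0.23 did not pass, and *Krt20* at -1.75, *Cela1* at -0.82 and *Krt19* at -0.23 were below 0. None of 6 endothelial and none of 8 early dissociation response genes rose. Fibroblasts, leukocytes and other islet cells express *Slc16a1*, *Slc16a3*, *Bsg* and *Ldha* as well, and the part of these cells in the ratios above was not tested.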

How the data were processed

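Replicating and quiescent β-cells of 3 islet preparations were measured on 6 arrays of 1 slide. The authors deposited the intensity of every spot, read with Feature Extraction 10.7.3.1, and log2 values after normexp and quantile normalisation. These log2 values equalled normexp at an offset of 50 with quantile normalisation, recomputed here, to within 0.00025. Probe positions in the files are on rn4; which part of a transcript a probe covers was not determined. Quantile normalisation gives all arrays 1 distribution, so a shift shared by all genes cannot be seen.

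Control spots were left out, outlier spots set to missing and spots of a probe averaged. All 45598 probes were tested with limma 3.58.1 in R 4.3.3 (lmFit, eBayes), with the preparation as a block, as the methods state. Pairing comes from the labels, and across probes, the 2 arrays of a preparation departed from their group means with an r of 0.0561, 0.242 and 0.258. P-values were adjusted by Benjamini-Hochberg over all probes. Depth is not defined for arrays; their number limits the precision. The genes and lists were chosen with earlier results of these data known. Named are all 10 genes, every list gene with an unadjusted p of at most 0.05, otherwise the brightest up to 4 of a list, and the 3 genes most correlated with *Slc16a1*; *Dlat* and the cell markers were added after their values were seen. The fit was also run on simulated data with noise of the same size on every array. That run held no outlying array like the quiescent array of preparation 2, so it does not show how the fit handles one. The alternatives were other normexp offsets, scalings, filters, probe rules and variance models, no block, and each preparation left out.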

Additional observations from a re-analysis of the deposited data

How the results depend on the processing

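Under the alternatives run, *Slc16a1*, *Slc16a3*, *Bsg*, *Slc16a7*, *Ldha*, *Pdk1* and *Mpc1* kept their direction. *Slc16a1* missed the threshold at 1.20 with the processed signal scaled to the 75th percentile and at 0.88 with normexp in that scaling. *Bsg* missed it at 0.98 and 0.94 in these settings and, at 1.14, with a variance trend (unadjusted p of 0.0513). With the processed signal 0 of the 10 genes and 4 of the 80 list genes passed, against 2 and 11 as reported; the list genes that passed were 3 higher and 1 lower with the processed signal, 8 and 4 with scaled normexp, and 10 and 1 as reported. Leaving out each preparation in turn left 4 arrays and gave 1.05 to 1.61 for *Slc16a1* and 1.00 to 1.23 for *Bsg*. Then 0 to 3 of the 10 genes and 2 to 23 list genes passed. The fewest came without preparation 1, where 286 of all 17960 genes rose and 24 fell. The most came without preparation 3, where 2459 rose and 1830 fell. *Ldhb* turned from -0.0096 to 0.014 and 0.032 at normexp offsets of 16 and 0, and lay between -0.28 and 0.42 with a preparation left out, *Emb* from 0.54 to between -0.27, without preparation 2, and 1.38, without preparation 3, and *Mpc2* from 2.02 to -0.22 with its RefSeq probe, an alternative chosen after seeing the data. *Mpc2* at its brightest probe passed with normexp scaled to the 75th percentile (1.64), cyclic loess (1.38) and a variance trend (2.02).

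With no replicate block, the pairing left out, *Slc16a1* (unadjusted p of 0.0265) and *Bsg* (0.00856) still passed, 2 of the 10 genes and 10 list genes did, and the block changed no other call among the 10 genes. At an adjusted p under 0.05 probes numbered 0 as reported, 719 with normexp scaled to the 75th percentile, 204 with cyclic loess, 99 with no block, 84 without preparation 2, 61 with a variance trend and 34 with the median over probes; none of the 10 genes was among them in any of these settings. The causes were not tested.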
